A study of Mus musculus with 6 samples.

Results

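The genes of translation initiation factors were examined in peak lists of COUP-TFII from the fetal mouse mesonephros. They are the protein-coding genes whose symbols start with Eif and a digit. Eif4g2 and the 3 such genes on the X and Y chromosomes were left out by this rule, which leaves 52 of 21887 protein-coding genes. COUP-TFII is the orphan nuclear receptor made from Nr2f2 and is abundant in mesenchyme, and the mesonephros lies beside the gonad and contains both genital ducts. Chromatin immunoprecipitation with sequencing (ChIP-seq) had been done on chromatin pooled from CD-1 embryos at E14.5, with 2 samples of XX mesonephroi and 2 samples of XY mesonephroi. The pools hold every cell type of the mesonephros, so that a peak cannot be placed in any of them. A further 2 samples of pooled input from both sexes were not analysed here. The authors' peak lists, 1 for each sex, hold 11175 female and 9846 male peaks, each 300 bp wide and with no height or score. Each sex has 1 list over its 2 samples, so the spread between replicates and the depth are unknown, and no difference between the sexes was tested.

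Initiation factors bring the ribosome to the start codon. The eIF4F complex reads the cap of the mRNA, eIF3 and the small eIF1 and eIF1A proteins prepare the small ribosomal subunit, eIF2 delivers the initiator tRNA, and eIF5 and eIF5B see to joining of the large subunit. Cells set the rate of protein synthesis mainly at eIF2, which is phosphorylated by stress kinases and recharged by eIF2B, and at eIF4E, which is held back by its binding proteins. These genes are expressed in nearly all dividing cells, and most are housekeeping genes.

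Each peak was assigned by its centre to the protein-coding gene whose body was nearest, up to 100 kb away, with distance 0 inside a gene. Female and male peaks with at least 1 bp in common count as shared, and a shared peak is counted at the gene nearest to its female position. By this rule, COUP-TFII peaks were found at 33 of the 52 genes, among them Eif4e, Eif4g1, Eif4g3, Eif4a1, Eif5, Eif1 and 8 genes of eIF3. A female peak was found at 31 genes (59.6%, exact 95% interval 45.1 to 73.0), against 38.0% of the 20665 autosomal protein-coding genes. A male peak was found at 27 genes (51.9%, 37.6 to 66.0), against 36.3%, and a shared peak likewise at 27 genes, against 29.3%. A peak in either list was found at 63.5% of initiation factor genes (49.0 to 76.4) and at 43.4% of all genes. All intervals cover counting error only. The share was higher than over all genes in each list, and no test was made of the difference.

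**Figure D1:**
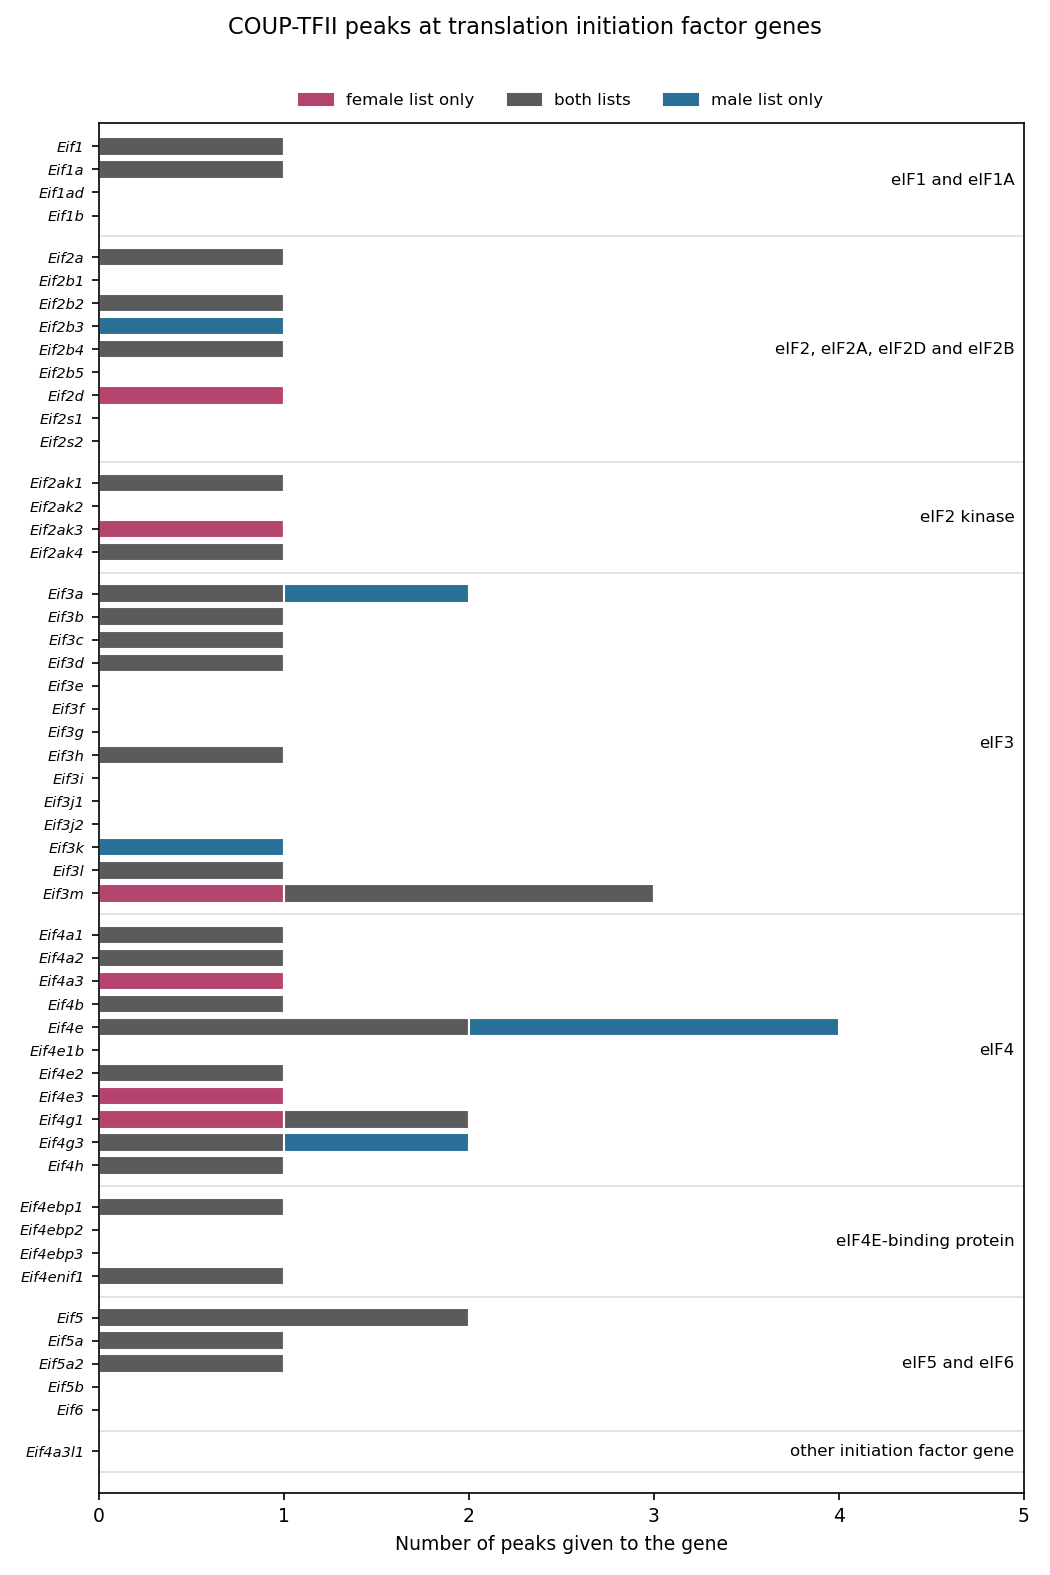
Number of peaks given to each of the 52 initiation factor genes (horizontal axis), with genes grouped by role and bars divided into peaks of the female list only, of both lists and of the male list only. A peak in both lists is drawn at the gene of its female position. Most genes with a peak have 1 that is in both lists, while Eif4e has 4 in all, of which 2 are shared, and Eif3m has 3.

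Other groups of genes that most cells use were counted in the same way. A shared peak was found at 42 of 80 cytosolic ribosomal protein genes (52.5%, 41.0 to 63.8), 42 of 78 mitochondrial ribosomal protein genes (53.8%, 42.2 to 65.2) and 18 of 50 proteasome genes (36.0%, 22.9 to 50.8), each taken by symbol and chosen for comparison after the data were seen. These intervals overlap that of the initiation factor genes (37.6 to 66.0), and no difference between the groups was tested.

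**Figure D2:**
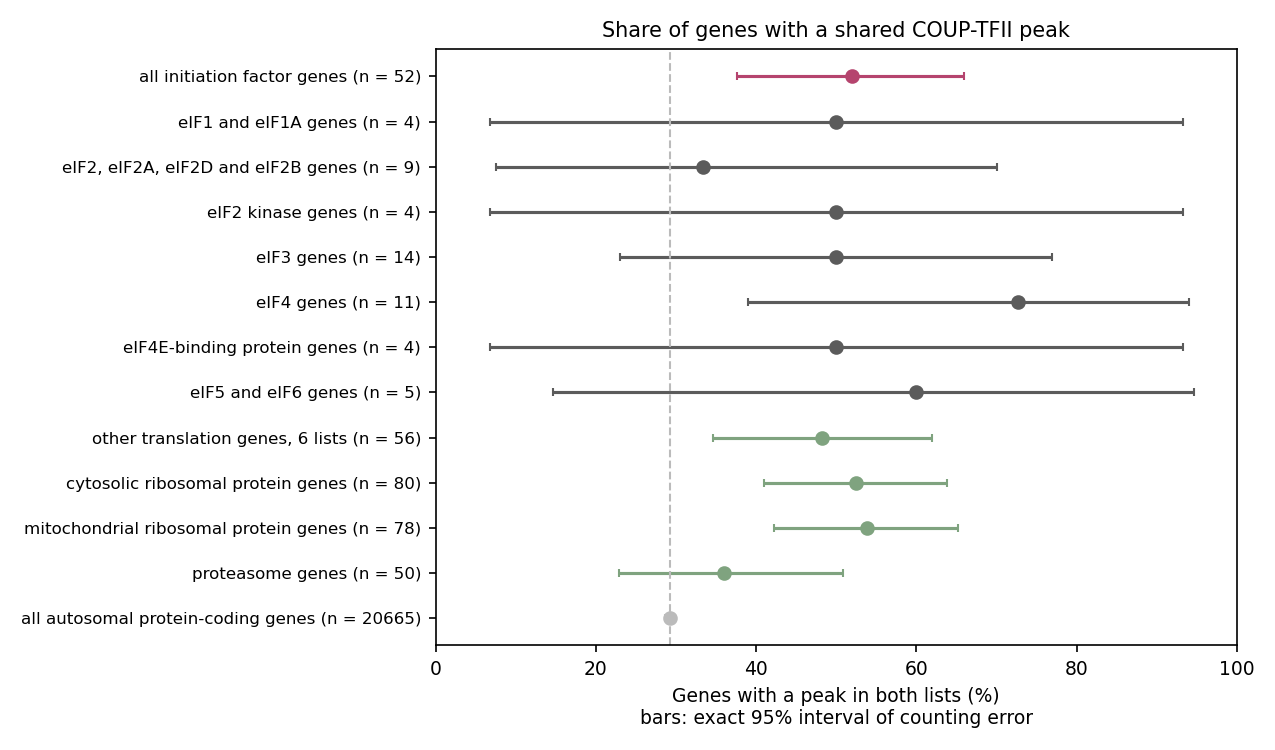
Share of genes with a peak in both lists (points, in %) for the initiation factor genes, their groups by role, other translation genes, related housekeeping groups and all autosomal protein-coding genes, with exact 95% intervals of counting error and a dashed line at the share over all genes. The 52 initiation factor genes stand at 51.9%, beside 52.5% for cytosolic ribosomal protein genes and 29.3% for all genes.

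Of the groups by role, that of cap recognition and unwinding of the mRNA had the most genes with a peak. Of the 11 genes of this eIF4 group, 10 had a female peak (90.9%, against 38.0% of all genes). A male peak stood at 8 (72.7%, against 36.3%) and a shared peak likewise at 8 (72.7%, 39.0 to 94.0, against 29.3%). The interval is wide, and no group was tested against another. Eif4e1b, a relative of Eif4e known from oocytes, had none in either list. Eif4e, which encodes the cap-binding protein, lies at chr3:138526191-138559696 and had 2 female and 4 male peaks. Its first shared peak was centred 357 bp downstream of a start site in the female list and 195 bp in the male list. Its second was centred 712 bp downstream of the nearest start site in the female list and 692 bp in the male list. The other peaks of Eif4e were in the male list only and lay outside the gene, by 10.1 kb and 53.8 kb. Eif4e is thus the member with the most peaks, and both of its peaks near a start are common to the lists.

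The scaffold genes of eIF4F, Eif4g1 and Eif4g3, each had a shared peak close to a start site and a further peak in 1 list. At Eif4g1 the shared peak was centred 20 bp downstream of the start in the female list and 13 bp upstream in the male list. The further peak of Eif4g1 was in the female list only, 849 bp downstream. At Eif4g3 the shared peak was centred 88 bp downstream in the female list and 76 bp downstream in the male list. Its further peak was in the male list only, 836 bp downstream.

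Among the RNA helicase genes, Eif4a1 had a shared peak 503 bp downstream of the start in the female list and 489 bp in the male list. Eif4a2 had a shared peak whose centres were farthest apart of all members, at 432 bp downstream in the female list and 719 bp in the male list, so that the peaks overlap by few bases. Eif4a3, the helicase of the exon junction complex, had 1 female peak, 153 bp downstream, and no male peak. Eif4b and Eif4h encode cofactors of the helicase. The shared peak of Eif4b lay 269 bp downstream in the female list and 254 bp in the male list, and that of Eif4h lay 265 bp upstream in the female list and 243 bp in the male list. Eif4e2, which encodes a cap-binding repressor of translation, had a shared peak centred 11 bp upstream of the start in the female list and on the start in the male list. Eif4e3 had 1 female peak, 2.22 kb outside the gene, and no male peak.

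Of the 4 genes of proteins that bind eIF4E, Eif4ebp1 and Eif4enif1 had a shared peak. The interval of this share was wide, 6.76 to 93.2%, and includes the 29.3% of all genes. Eif4ebp1, whose product blocks eIF4E until mTOR phosphorylates it, had its peak inside the gene. It lay 227 bp from the nearer end of the gene in the female list and 126 bp in the male list. The strand of Eif4ebp1 was not available, so the nearer end may be the start or the tail. Eif4enif1, whose product carries eIF4E into the nucleus, had its female peak 53 bp downstream of a start site. The male peak overlapping it lies nearer to Gm51877 and was given to that gene. Eif4ebp2 and Eif4ebp3 had no peak.

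The eIF3 complex is the scaffold of initiation on the small subunit. Of its 14 genes, 7 had a female peak (interval 23.0 to 77.0%, against 38.0% of all genes). A male peak stood at 8 (57.1%, 28.9 to 82.3, against 36.3%). A shared peak stood at 7 (interval 23.0 to 77.0%, against 29.3%). Each interval includes the share over all genes. Shared peaks stood at Eif3a, Eif3b, Eif3c, Eif3d, Eif3h, Eif3l and Eif3m. They lay on either side of the starts. At Eif3b the shared peak was 701 bp upstream in the female list and 659 bp in the male list, and at Eif3d it was 407 bp upstream in the female list and 417 bp in the male list. At Eif3c it was 130 bp downstream in the female list and 216 bp in the male list. Eif3a, which encodes the largest subunit, had a shared peak 186 bp upstream in the female list and 224 bp in the male list, with a male-only peak 473 bp downstream. At Eif3l the female centre was 95 bp downstream and the male centre 122 bp upstream of the start. The peak of Eif3h lay inside the gene, 104 bp from its nearer end (start or tail not known) in the female list and 167 bp in the male list. Eif3k had 1 male peak, 174 bp downstream, and no female peak.

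Eif3m, at chr2:104999656-105017027, had 3 female and 2 male peaks. The shared peak at its start was centred 64 bp downstream in the female list and 67 bp in the male list, the closest agreement among members. A second shared peak lay 10.3 kb upstream in the female list and 10.2 kb in the male list, and a female-only peak lay 52.4 kb upstream. With Eif4e and Eif5, Eif3m is 1 of 3 members with 2 shared peaks, which is 5.77% of the members against 3.87% of all genes. Eif3e, Eif3f, Eif3g, Eif3i, Eif3j1 and Eif3j2 had no peak by the rule. Eif3j1 and Eif3j2 are near copies of each other, and the treatment of reads that fit both is not given in the sources used here.

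Delivery of the initiator tRNA is the step that stress signals control. Of 9 genes of eIF2, eIF2A, eIF2D and eIF2B, 4 had a female peak (44.4%, against 38.0% of all genes). A male peak stood at 4 (44.4%, against 36.3%) and a shared peak at 3 (33.3%, 7.49 to 70.1, against 29.3%). The shared ones were at Eif2a, Eif2b2 and Eif2b4. Eif2b2, which encodes the beta subunit of the exchange factor eIF2B, had its peak 8 bp upstream of the start in the female list and 77 bp downstream in the male list. Eif2b4, the gene of the delta subunit, had its peak 70 bp downstream in the female list and 111 bp in the male list, and Eif2a had its peak 170 bp downstream in the female list and 178 bp in the male list. Eif2d, whose product can bring tRNA to the ribosome without eIF2, had 1 female-only peak, 65 bp downstream. Eif2b3 had 1 male-only peak, inside the gene and 36 bp from its nearer end (start or tail not known). Eif2s1 and Eif2s2, which encode the alpha and beta subunits of eIF2, and Eif2b1 and Eif2b5 had none by the rule.

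Of the 4 eIF2 kinase genes, 3 had a female peak (interval 19.4 to 99.4%, against 38.0% of all genes). A male peak stood at 2 (interval 6.76 to 93.2%, against 36.3%) and a shared peak likewise at 2 (6.76 to 93.2%, against 29.3%). These intervals are wide and include the shares over all genes. Eif2ak4 (GCN2, which senses lack of amino acids) had a shared peak 193 bp downstream of a start site in the female list and 88 bp in the male list. Eif2ak1 (HRI, a kinase of heme lack) had a shared peak 14.6 kb upstream of the gene in both lists and none at its start. Eif2ak3 (PERK, of endoplasmic reticulum stress) had 1 female-only peak, centred at -623 bp from a start site. Eif2ak2 (PKR, which is switched on by double-stranded RNA) had none.

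Of the 4 genes of the eIF1 and eIF1A group, Eif1 and Eif1a had a shared peak. The interval of this share was likewise wide, 6.76 to 93.2%, and includes the 29.3% of all genes. Eif1, whose product guards the choice of start codon, had its peak 348 bp downstream of the start in the female list and 458 bp in the male list. The female peak of Eif1a, whose product works with eIF1 in scanning, lay inside the gene and 3 bp from its nearer end (start or tail not known). The overlapping male peak was given to Tmed7. Eif1b had none. In the group of eIF5 and eIF6, 3 of 5 genes had a peak in both lists (60.0%, 14.7 to 94.7, against 29.3%). Eif5, which encodes the GTPase-activating protein of eIF2, had a pair of shared peaks. The first was centred 24 bp upstream of the start in the female list and 56 bp in the male list, and the second 824 bp downstream in the female list and 803 bp in the male list. Eif5a, whose product carries the amino acid hypusine, had its peak 42 bp upstream of a start site in the female list and 14 bp downstream in the male list. Its relative Eif5a2 had its peak at -202 bp from a start site in the female list and -180 bp in the male list. The peaks of Eif5a and Eif5a2 nevertheless lie inside the gene bodies, which reach beyond these start sites. Eif5b and Eif6 had none by the rule. Eif4a3l1, a copy of Eif4a3 that falls in no group, had none.

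Peaks of either list alone were compared with those in both. Of the 36 female peaks of these genes, 30 were also in the male list (83.3%, 67.2 to 93.6), against 69.0% of female peaks at all autosomal genes. Of the 34 male peaks, 28 were also in the female list (82.4%, 65.5 to 93.2), against 76.2%. Both intervals include the share over all genes. A female peak with no male peak stood at 6 genes, 11.5% of members against 7.04% of all genes. At Eif1a and Eif4enif1 a male peak overlaps it and went to a neighbour, which leaves Eif2d, Eif4a3, Eif2ak3 and Eif4e3. A male peak with no female peak stood at Eif2b3 and Eif3k, 3.85% of members against 5.41%. Lists without signal values do not show whether such a place had less COUP-TFII in the other sex or a peak just too weak to be listed. At the 30 shared peaks the female and male centres lay a median of 40 bp apart (3 to 287), against 33 bp over all 7483 shared peaks.

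Peaks of initiation factor genes lay mostly at gene starts. Of female peaks, 83.3% had a gene end, either 5′ or 3′, within 1 kb (67.2 to 93.6), against 56.2% of female peaks at all autosomal genes. Of male peaks, 79.4% did so (62.1 to 91.3), against 63.4%. The share of peaks inside the gene body was close to the background, at 66.7% against 68.5% in the female list and 67.6% against 72.0% in the male list. A RefSeq table of promoters (GRCm38.p6, the assembly called mm10) gives strand and start sites for 41 of the 52 genes, all but Eif1a, Eif2b3, Eif3e, Eif3h, Eif3i, Eif3j2, Eif4e1b, Eif4e3, Eif4ebp1, Eif4ebp3 and Eif6. Among peaks at these genes, 29 of 32 female peaks and 27 of 31 male peaks lay within 1 kb of a start site, which is 90.6% and 87.1%. Over all genes in that table the shares were 63.1% of female and 70.8% of male peaks. Within 1 kb, the median centre lay 70 bp downstream of the start for female peaks of members (quartiles -24 and 269) and 98 bp for all female peaks. For male peaks it lay 88 bp downstream for members and 108 bp for all genes. The centres of 19 of the 29 female and 18 of the 27 male peaks were downstream, which is 65.5% and 66.7%, against 67.3% and 69.9% over all genes. The quartiles for male peaks were -34.5 and 356 for members and -65 and 252 for all genes, and for all female peaks they were -97.75 and 244. The share of peaks within 1 kb of a start was higher for members than over all genes in both lists, and this difference was not tested. The interval for male peaks within 1 kb of a gene end includes the share over all genes.

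Some members had more than 1 peak within 1 kb of a start site. In the female list these were Eif5, Eif4g1 and Eif4e, 3 of the 26 members with such a peak (11.5%, against 6.14% of all genes with such a peak). The centres were 848 bp apart at Eif5, 829 bp at Eif4g1 and 1432 bp at Eif4e, which has more than 1 annotated start. In the male list they were Eif5, Eif3a, Eif4g3 and Eif4e, 4 of 23 members (17.4%, against 6.08% of all genes), with centres 859, 697, 760 and 1574 bp apart. At Eif5 and Eif4e both peaks of the pair were in both lists, while at Eif4g1, Eif3a and Eif4g3 the peak farther from the start was in 1 list only. These genes were noticed after their values were seen, the counts are small, and no test was made.

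**Figure D3:**
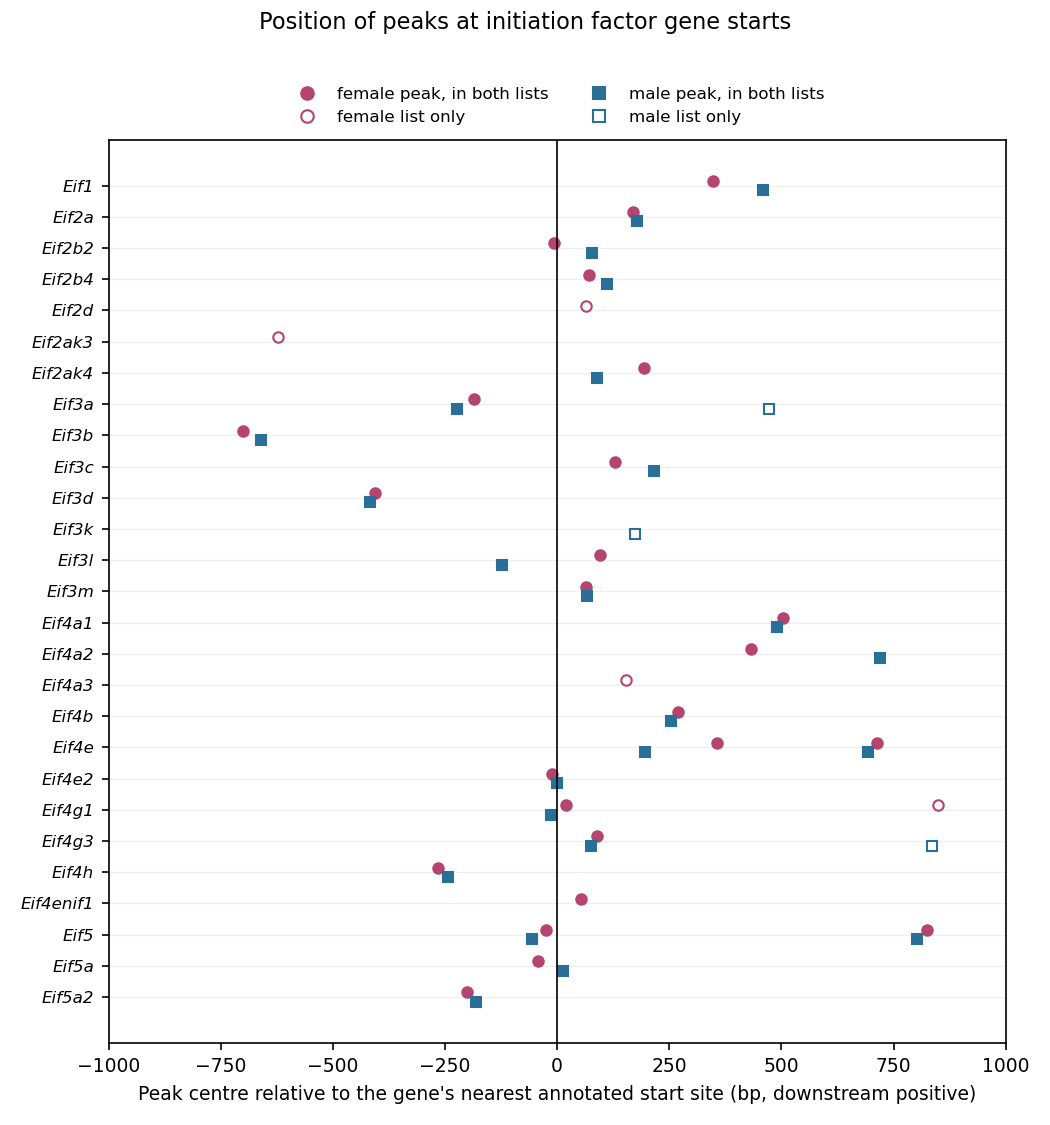
Distance of peak centres from the nearest annotated start site of the gene (horizontal axis, bp, downstream positive) for each initiation factor gene with start sites in the RefSeq table and a peak within 1 kb, with female peaks as circles, male peaks as squares and open symbols for peaks in 1 list only. Peaks in both lists overlap, so their female and male centres lie at most 299 bp apart by definition. Among them Eif4a2 has the widest gap, at 432 bp in the female list and 719 bp in the male list.

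Some members have a peak within 1 kb that the rule gives to a neighbour whose body reaches over it. Counting each peak for every protein-coding gene inside or within 1 kb, 34 members had a female peak (65.4%, against 38.5% of all genes), 32 had a male peak (61.5% against 37.4%) and 30 had a shared peak (57.7% against 30.5%). This adds 5 members that had none by the rule. It also leaves out Eif2ak1 and Eif4e3, whose only peaks lie more than 1 kb outside the gene. The shared peak before Eif2s1 lies inside Atp6v1d, 390 bp upstream of the start of Eif2s1 in the female list and 321 bp in the male list. The shared peak at Eif1ad, a gene named for an eIF1A-like domain, lies inside Banf1, 4 bp upstream of the start of Eif1ad in the female list and 190 bp in the male list. That of Eif5b, the gene of the GTPase of subunit joining, lies inside Txndc9, 927 bp upstream in the female list and 899 bp in the male list. That of Eif3i lies inside Tmem234, 366 bp from Eif3i in the female list and 306 bp in the male list. Eif6, whose product keeps the large subunit from joining early, has a female-only peak 830 bp away, inside BC029722. Start sites of Eif3i and Eif6 are not in the RefSeq table, so these distances are to the gene body. Eif4g1, which has peaks of its own, also has a male-only peak 462 bp from its body, inside Fam131a and far from its start. Peaks between close genes cannot be tied to either gene from their position. Among peaks given to members, 4 of 36 female peaks (11.1%, against 10.3%) and 3 of 34 male peaks (8.82%, against 11.1%) had another protein-coding gene's end within 1 kb. In the female list these were Serp1 beside Eif2a, Snx17 beside Eif2b4, Tmed7 beside Eif1a, and Sfi1 and Gm51877 beside Eif4enif1. In the male list they were Serp1, Snx17 and, beside Eif3k, Map4k1. The 14 members with no peak by either count are Eif1b, Eif2b1, Eif2b5, Eif2s2, Eif2ak2, Eif3e, Eif3f, Eif3g, Eif3j1, Eif3j2, Eif4e1b, Eif4ebp2, Eif4ebp3 and Eif4a3l1.

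The promoter windows of the RefSeq table run from 250 bases before to 50 bases after a start site. Any window of a gene was under a female peak at 20 of the 41 members in the table (48.8%, 32.9 to 64.9), against 22.4% of 16457 autosomal genes. A male peak lay over a window at 19 members (46.3%, 30.7 to 62.6), against 22.6%, and a shared peak at 18 (43.9%, 28.5 to 60.3), against 18.2%. A shared peak was again counted by its female position, so the overlapping male peak need not reach the window. For base composition and motifs the most upstream window of each gene was taken, and 17 of the 41 then lay under a shared peak. Among these 17 is Eif3c, whose male peak does not reach the window. Matches were counted on both strands. The half-site AGGTCA, the sequence that nuclear receptors such as COUP-TFII bind in pairs, was in 2 of these 17 windows and in none of the 24 other windows of members. It was in 14.4% of all windows and in 16.0% of all windows under a shared peak. The direct repeat of the half-site with 1 base between the copies was in no window of a member and in 8 windows of all genes.

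The GC box GGGCGG, the core bound by Sp and Klf factors, was in 16 of the 17 windows under a shared peak (94.1%) and in 13 of the 24 others (54.2%). Over all genes it was in 70.4% of windows under a shared peak and in 42.6% of the rest, and in 47.3% of all windows. The ETS core CCGGAAG was in 8 of the 17 windows (47.1%) and in 5 of the 24 others (20.8%), against 27.0% and 9.28% over all genes and 12.3% of all windows. Other motifs were counted in the same way. The E-box CACGTG was in 4 of the 17 and 4 of the 24 windows (7.97% of all windows), CCAAT in 6 and 8 (39.1%), TATAAA in 1 and 2 (13.5%), the NRF1 motif in 2 and 3 (6.88%) and AAGATGGC in 0 and 2 (3.21%). Of all windows under a shared peak, 13.5% held CACGTG, 41.0% CCAAT and 4.70% TATAAA. The NRF1 motif was in 13.7% of them and AAGATGGC in 7.29%. The counts in members are small, and a match is a run of letters and not a shown binding site.

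Windows of 6 members under a shared peak are printed below, 5′ to 3′ on the strand of the gene, to show where the half-site and the GC box lie in them. They are both windows with the half-site and the first 4 by symbol without it, so they do not show how often it occurs. Capitals mark the half-site (AGGTCA, or TGACCT on the other strand) and the GC box (GGGCGG, or CCGCCC on the other strand).
Eif2b2, chr12:85219231-85219530, plus strand: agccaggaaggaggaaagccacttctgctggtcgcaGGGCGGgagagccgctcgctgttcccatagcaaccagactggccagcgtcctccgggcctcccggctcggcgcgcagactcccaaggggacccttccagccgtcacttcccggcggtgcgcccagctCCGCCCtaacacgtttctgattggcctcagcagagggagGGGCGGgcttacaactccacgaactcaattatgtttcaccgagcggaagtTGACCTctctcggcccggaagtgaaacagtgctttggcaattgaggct
Eif4enif1, chr11:3202103-3202402, plus strand: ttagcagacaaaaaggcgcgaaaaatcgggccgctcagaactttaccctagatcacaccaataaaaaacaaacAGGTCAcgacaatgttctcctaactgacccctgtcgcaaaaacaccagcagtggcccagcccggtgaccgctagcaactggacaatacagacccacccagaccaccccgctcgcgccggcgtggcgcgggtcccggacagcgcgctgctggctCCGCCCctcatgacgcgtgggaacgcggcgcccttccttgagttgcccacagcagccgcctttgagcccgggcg
Eif1ad, chr19:5366563-5366862, plus strand: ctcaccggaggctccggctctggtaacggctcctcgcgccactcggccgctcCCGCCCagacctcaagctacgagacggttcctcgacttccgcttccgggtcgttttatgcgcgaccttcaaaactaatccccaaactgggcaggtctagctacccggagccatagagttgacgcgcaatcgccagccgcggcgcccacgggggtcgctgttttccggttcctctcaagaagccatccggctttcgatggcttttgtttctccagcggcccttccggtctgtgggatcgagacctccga
Eif2a, chr3:58525571-58525870, plus strand: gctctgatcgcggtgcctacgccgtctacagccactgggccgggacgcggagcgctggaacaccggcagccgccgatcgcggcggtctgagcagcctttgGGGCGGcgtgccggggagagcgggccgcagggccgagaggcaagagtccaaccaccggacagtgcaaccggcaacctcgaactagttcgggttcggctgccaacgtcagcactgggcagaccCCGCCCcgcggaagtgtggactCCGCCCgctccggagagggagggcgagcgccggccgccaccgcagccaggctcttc
Eif2ak4, chr2:118388367-118388666, plus strand: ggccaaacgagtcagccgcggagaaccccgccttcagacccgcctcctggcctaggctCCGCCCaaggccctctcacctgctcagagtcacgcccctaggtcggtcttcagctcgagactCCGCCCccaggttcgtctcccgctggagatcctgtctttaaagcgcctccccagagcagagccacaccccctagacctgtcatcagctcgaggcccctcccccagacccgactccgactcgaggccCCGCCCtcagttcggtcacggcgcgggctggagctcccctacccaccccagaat
Eif2b4, chr5:31193090-31193389, minus strand: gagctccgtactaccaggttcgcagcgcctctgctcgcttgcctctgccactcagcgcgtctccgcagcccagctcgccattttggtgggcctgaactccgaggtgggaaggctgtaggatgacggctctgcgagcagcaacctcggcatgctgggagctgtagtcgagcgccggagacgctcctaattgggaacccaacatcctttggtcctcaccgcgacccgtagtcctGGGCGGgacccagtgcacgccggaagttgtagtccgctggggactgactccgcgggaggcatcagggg

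In the Eif2b2 window the half-site lies at chr12:85219483-85219488, inside both the female and the male peak, 12 bp from the female centre and 73 bp from the male centre. In the Eif4enif1 window it lies at chr11:3202176-3202181, outside the female peak and 228 bp from its centre, and inside the male peak and 98 bp from its centre. Each half-site is thus inside a peak of at least 1 list. The windows of Eif2a, Eif2ak4 and Eif2b2 hold 3 GC boxes each and those of Eif1ad, Eif2b4 and Eif4enif1 hold 1 each. The GC box of Eif1ad lies outside the female peak and inside the male peak. Of the GC boxes of Eif2ak4, none lies inside the female peak and the one nearest to the start lies inside the male peak. Those of Eif2a lie outside both peaks. At Eif2b2, 2 lie inside the female peak and 1 inside the male peak. The single boxes of Eif2b4 and Eif4enif1 lie inside both. Sequence under the peaks beyond these windows was not used here.

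The windows of initiation factor genes are rich in CpG, as is usual for housekeeping genes. The ratio of observed to expected CpG had a median of 0.854 in the 41 windows of members, against 0.597 in all windows, and G and C made up a median of 61.3% of bases, against 56.7%. The range of CpG ratios was wide among members, 0.202 (Eif4a3l1) to 1.22 (Eif2b1). Members under a shared peak had a lower median CpG ratio than the other members, 0.802 against 0.901, and more G and C, 64.7% against 57.7%. Over all genes, windows under a shared peak had 0.833 and the rest 0.474. Base composition therefore moves with the presence of a peak over all genes. Of windows with a CpG ratio of at least 0.777, the lower quartile of members, 41.9% were under a shared peak among members (13 of 31) and 32.8% among all genes (1735 of 5297). Below that ratio, 40.0% were under a shared peak among members (4 of 10, 12.2 to 73.8) and 9.42% among all genes (1051 of 11160). Over all windows it was 41.5% of members and 16.9% of all genes. The members' interval above this ratio (24.5 to 60.9) includes the share of all genes there. Below it, the 4 members under a shared peak lay at 0.710 (Eif2ak4) to 0.768 (Eif3m). Members with lower ratios, 0.202 (Eif4a3l1) to 0.636 (Eif2ak2), were not under one. Neither was Eif2ak3, which had the highest ratio below the cut, 0.770. The 10 windows of members below the cut are few. They were not matched in CpG ratio to those of all genes, so the shares below it cannot be compared directly. The part of base composition in the members' share was not tested. This ratio was chosen after the values were seen.

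**Figure D4:**
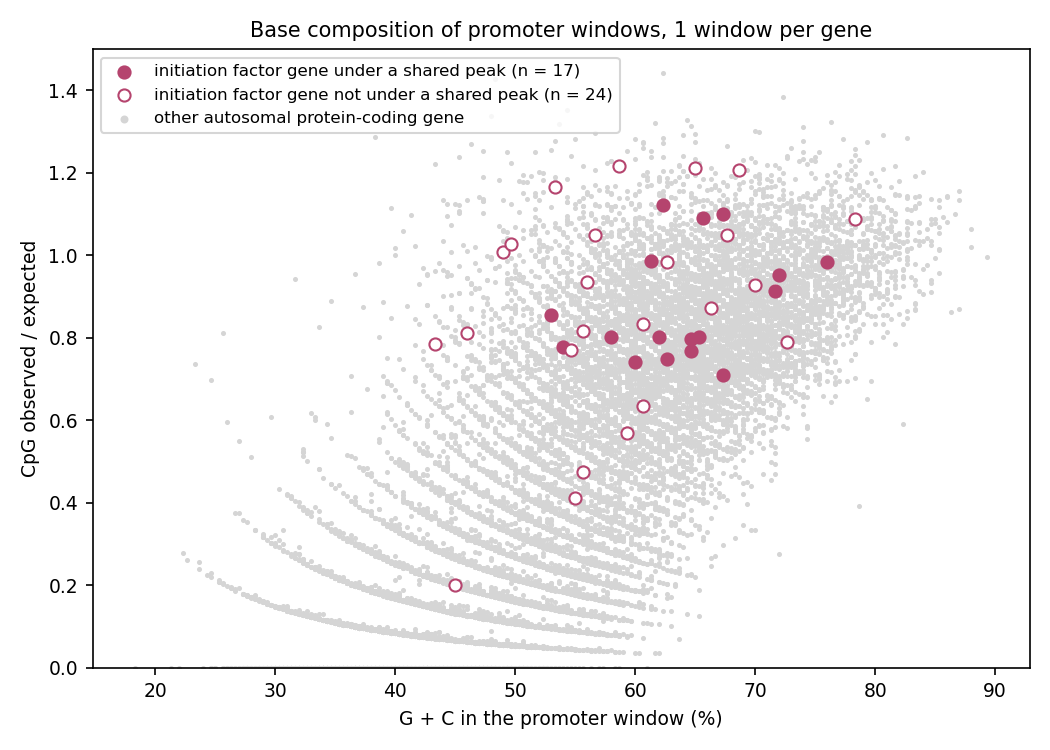
Percentage of G and C (horizontal axis) and ratio of observed to expected CpG (vertical axis) in the most upstream promoter window of each gene, with filled circles for the 17 initiation factor genes under a shared peak, open circles for the other 24 and grey points for other autosomal genes. Members under a shared peak lie between 0.710 and 1.12 in CpG ratio, and Eif4a3l1 lies lowest, at 0.202.

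Other genes of translation and its control were counted in 6 lists. Of 56 genes together, 33 had a female peak (58.9%, against 38.0% of all genes), 34 had a male peak (60.7%, against 36.3%) and 27 had a shared peak (48.2%, 34.7 to 62.0, against 29.3%). By list the counts are small, the intervals are wide, and no list was tested against another. The share of all genes beside each list is the same 29.3%. Of 9 elongation factor genes, 6 had a shared peak (66.7%, 29.9 to 92.5). Eefsec, the factor for selenocysteine, had 2 shared peaks, and Eef1a1 and Eef1b2, of the complex that brings tRNA to the ribosome, had 1 each. Of 5 termination and recycling genes, 2 had a shared peak (40.0%, 5.27 to 85.3), the release factor genes Etf1 and Gspt1. Of 9 genes of poly(A) and cap binding and of helper helicases, 5 had a shared peak (55.6%, 21.2 to 86.3). Pabpc1, the poly(A)-binding protein gene, had 2, and Dhx29 and Larp1 had 1 each. Of 4 genes of the integrated stress response that acts through eIF2, Atf4, Ppp1r15a and Ppp1r15b each had 1 shared peak. Of 9 genes of mTOR and MNK signalling to initiation, 4 had a shared peak (44.4%, 13.7 to 78.8), among them Akt1s1, Mknk1 and Mlst8. Of 20 aminoacyl-tRNA synthetase genes, 7 had a shared peak (35.0%, 15.4 to 59.2), among them Aars, Dars and Eprs with 1 each.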

How the data were processed

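The authors deposited 1 peak list for each sex, with start and end positions (mm10, per the submitters' processing notes) as the only values and no other score. Those notes name, with no role, HOMER 4.10.3, Bowtie 1.2, cutadapt, bedtools 2.24.0 and Picard. The sources used here do not give the peak threshold, the way replicates were combined or the treatment of reads shared by near copies, and the depth is unknown. The extraction text of the labels names RUNX1 and fetal ovaries. Titles, tissue and antibody name COUP-TFII and mesonephroi and were followed.

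Genes came from a RefSeq table of GRCm38.p6 and promoter windows from a second such table, whose orientation was checked on 742 overlapping pairs. Peaks were assigned by centre in Python 3.11.15 with pandas 2.3.3. The assignment was tested on 400 simulated peaks with known answers, and the 7483 shared peaks were checked with bedtools 2.31.1. Intervals are exact (Clopper-Pearson, scipy 1.17.1). No statistical test was made. Members with a peak in either list are named by rule, as are up to 3 genes of each translation list. The members and lists were chosen with earlier results of these data known. The ribosomal and proteasome lists, the CpG ratio and the count of genes with several peaks at a start were added after the data were seen. Alternatives were other distances, assignments and definitions of a shared peak or gene end.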

Additional observations from a re-analysis of the deposited data

How the results depend on the processing

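No paired analysis was possible because each sex has 1 peak list over its 2 samples, which also leaves no replicate to take out. Over the assignments tried (genes within 10 kb or 500 kb, the nearest gene end, the nearest gene of any type, and every gene inside or within 1 kb), 30 to 34 of the 52 genes had a female peak, 26 to 32 had a male peak and 26 to 30 had a shared peak. Genes with a shared peak numbered 24 (46.2%, against 27.6% of all genes) when 50% of each peak had to overlap and 20 (38.5%, against 25.5%) with centres within 100 bp. The last is the lowest share tried and lies nearer to that of all genes than the reported 51.9% against 29.3%. No interval is given for these alternatives. Female peaks near a gene end numbered 24 within 500 bp and 33 within 2.5 kb, and male peaks 23 and 29. These 25 values lay within 1.5 times those reported, which concerns the counts and not their distance from the share over all genes. The longer half-site AAGGTCA was in 0 promoter windows of members, against 2 with AGGTCA, because it is the stricter word. A threshold stricter than the authors' could not be tried, since the peaks have no score. The unknown depth limits every absent peak.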
